A study of Mus musculus with 18 samples.

Results

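The 10 genes described here, Egr1, Egr3, Nr4a1, Nr4a3, Zfp36, Btg2, Dusp1, Ier2, Ier3 and Ier5, are immediate early genes that do not belong to the AP-1 family. They were followed as named columns of the deposited count matrices, 10 of the 35843 Ensembl genes measured, and all 10 had a column in the matrices except that Egr3 had none on the fifth P28 chip. Counts are unique molecular identifiers (UMIs), each standing for 1 captured polyadenylated RNA molecule in 1 well.

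Immediate early genes are transcribed within minutes of a stimulus, before any new protein is made. Growth factors, mechanical load, ischaemia and the handling of tissue can all switch them on, through MAP kinases acting on serum response factor at CArG boxes and on CREB at cAMP response elements. Their transcripts are short-lived, and several of the proteins shut the response down again. Egr1 and Egr3 are zinc finger transcription factors, and Nr4a1 and Nr4a3 are orphan nuclear receptors. Zfp36 (tristetraprolin) binds AU-rich elements and speeds mRNA decay, Btg2 is an antiproliferative factor that recruits a deadenylase complex, and Dusp1 is a phosphatase that inactivates MAP kinases. Ier2, Ier3 and Ier5 are compact early response genes.

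Wild-type cells came from hearts of mice of the strain Myh6/Esr1-Tomato (Myh6-Cre/Esr1 with R26-tdTomato in the methods). In these mice tamoxifen given after birth turns on a red reporter in cells that use the cardiomyocyte (CM) promoter Myh6. Wild-type hearts were taken at P4, P7, P14 and P28, on 2, 2, 2 and 6 nanowell chips. A further 6 chips held P28 cells of 4 mice that had received lentivirus in the myocardium at P1. Of these mice, 2 received a hairpin against Jun (shJun) and 2 a non-targeting hairpin (shNT). For the injected mice the study's methods name no reporter strain and no tamoxifen, and their default strain is C57BL/6. P4 and P7 hearts were chopped and digested with a kit, whereas P14 and P28 hearts were digested by Langendorff perfusion, so that age and digestion change together between P7 and P14 and cannot be told apart. Cell fractions differed as well. P14 chips held wells of CM and non-CM fractions. The first, the third and the fifth P28 chips were deposited as CM and the others as non-CM, although the well reports of the third and the fourth name no fraction. P4 and P7 wells were named by animal alone. Both chips of P4 carried the same 2 animal names, as did both chips of P7, so p-values for stages measure the spread between chips, part of which may be technical.

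The 18 chips held between 11161784 and 133264535 UMIs each, and 12938 of 15993 wild-type cells and 7058 of 7482 knockdown cells passed the filter. Classes were named from markers, and the CM-like, endothelial-like, fibroblast-like and macrophage-like classes used here held 8951 wild-type and 5166 knockdown cells. UMIs of a class were summed per chip, or per knockdown animal, and levels are given as counts per 1000000 UMIs of the class (CPM). In such sums fewer cells that express a gene and fewer transcripts per cell cannot be told apart. P7 gave only 1 CM-like sum, of 21 cells, because the other P7 chip held fewer than the 20 cells required. Of 5051 well barcodes 4890 occurred on more than 1 chip, since the chips share a fixed barcode set.

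Dusp1 and Egr1 had the most UMIs over all wild-type cells, 54590 and 49719, and were detected in 6285 and 5424 cells. Egr3 was close to absent, with 68 UMIs in 37 wild-type cells and 17 UMIs in 14 knockdown cells. On the first P7 chip, 92.9% of the 28 Egr3 UMIs of fibroblast-like cells came from a single cell, and Egr3 did not pass the filter of any test.

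In RefSeq (GRCm38.p6) Btg2 spans chr1:134074865-134079155, Dusp1 spans chr17:26505591-26508472, Egr3 spans chr14:70077317-70082613, Ier2 spans chr8:84661331-84662852, Ier3 spans chr17:35821713-35822911, Ier5 spans chr1:155096367-155099636, Nr4a1 spans chr15:101253902-101274795, Nr4a3 spans chr4:48045078-48086447 and Zfp36 spans chr7:28376784-28379228. The promoters of 7 of the genes were available, as windows of 250 bases before and 50 after the start. Those of Egr1, Egr3 and Ier2 were not available here, so the counts of motifs do not cover them. The cAMP response element TGACGTCA lay in the windows of Btg2 and Dusp1, 2 of 7, against 1.8% of 32544 promoters, with its first base at -166 and -143 from the start. Its core TGACG, read on both strands and contained in the full element, occurred in 4 of 7 windows (Btg2, Dusp1, Nr4a1 and Nr4a3) against 20.9% of promoters. A CArG box lay in 1 of 7, that of Zfp36 at -58, against 1.64% of promoters. The AP-1 letters TGANTCA (7.79% of promoters), the EGR letters GCGTGGGCG (0.618%) and TATAAA (13.6%) occurred in none of the 7 windows. The stretches before the start that hold these letters are shown 5′ to 3′ for Btg2 and Dusp1, which have the full element, for Nr4a1, and for Zfp36 with its CArG box, without bases that another annotated transcript uses as an exon. The window of Nr4a3, which overlaps annotated exons, is not shown. For Zfp36, where such an exon covers the window, only the 30 bases around the CArG box are given. Capitals mark the response element and its core (CGTCA where the core reads on the other strand), or the CArG box.
Btg2 (chr1:134079156-134079405, minus strand): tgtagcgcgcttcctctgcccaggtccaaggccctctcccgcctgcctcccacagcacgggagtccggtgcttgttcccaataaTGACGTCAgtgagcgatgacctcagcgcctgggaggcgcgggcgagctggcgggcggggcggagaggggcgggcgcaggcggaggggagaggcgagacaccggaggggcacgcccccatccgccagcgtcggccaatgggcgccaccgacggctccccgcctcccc
Dusp1 (chr17:26508520-26508722, minus strand): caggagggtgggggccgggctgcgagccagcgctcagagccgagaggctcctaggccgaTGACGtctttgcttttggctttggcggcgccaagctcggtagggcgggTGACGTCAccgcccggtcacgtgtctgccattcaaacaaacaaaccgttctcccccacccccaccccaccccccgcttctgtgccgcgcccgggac
Nr4a1 (chr15:101266596-101266845, plus strand, within an intron of a longer Nr4a1 transcript): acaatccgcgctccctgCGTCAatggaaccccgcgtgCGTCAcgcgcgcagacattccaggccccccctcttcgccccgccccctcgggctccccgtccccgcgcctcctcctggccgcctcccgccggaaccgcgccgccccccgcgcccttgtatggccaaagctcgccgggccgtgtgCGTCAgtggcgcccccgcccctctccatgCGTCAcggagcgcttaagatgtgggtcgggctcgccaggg
Zfp36 (chr7:28379267-28379296, minus strand): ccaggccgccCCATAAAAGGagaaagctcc

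In CM-like cells, 8 of the 9 genes tested were called higher when the mean of P14 and P28 was set against that of P4 and P7. Of all 15903 genes tested, 5.46% were called higher and 3.78% lower. A call does not mean that P14 alone was higher. For Ier2 and Ier3 the P14 sums lay within the early range, as did a P14 sum of Egr1 and of Btg2. The median log2 change of the 9 genes was 2.75, beside 0.40 over all genes. In endothelial-like, fibroblast-like and macrophage-like cells 4 of 9 genes were called in each class, all higher, beside 3.22, 1.69 and 0.965% of all genes called higher and 2.96, 2.24 and 0.694% called lower, and the median changes were 1.32, 1.77 and 2.04, beside -0.02, -0.17 and -0.08 over all genes. All 9 estimates were positive in all 4 classes, and Zfp36, Btg2 and Dusp1 were called in each of them. With sums per named animal in place of chips 6, 3, 5 and 5 genes were called, without Ier2 (1.28, adjusted p = 0.0512) and Ier3 (1.26, adjusted p = 0.0634) in CM-like cells and Zfp36 (2.13, adjusted p = 0.0757) in endothelial-like cells, and with Ier2 in fibroblast-like (1.16, adjusted p = 0.0362) and Ier3 in macrophage-like cells (1.48, adjusted p = 0.0418) added. Differences between stages are log2 changes ± SE from edgeR with Benjamini-Hochberg adjustment over all genes of the class, and a gene is called at an adjusted p under 0.05.

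**Figure D1:**
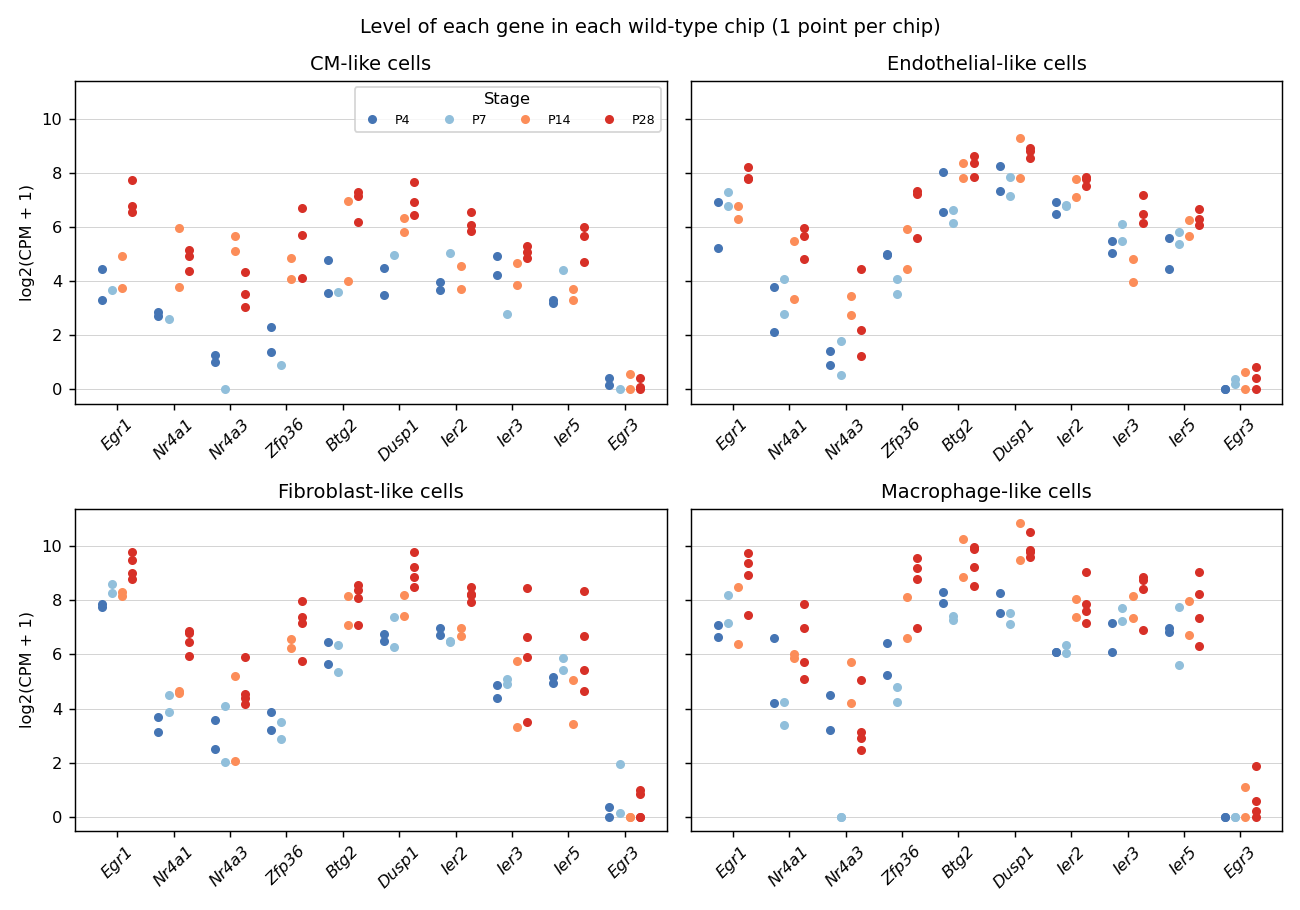
Level of each of the 10 genes in each wild-type chip, as log2(CPM + 1) on the y axis, for 4 cell classes, with 1 point per chip coloured by stage. In CM-like cells the P14 and P28 points of Nr4a1, Nr4a3, Zfp36 and Dusp1 lie above all P4 and P7 points, and Egr3 stays near 0 throughout.

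Egr1, the best known of the zinc finger factors, stood at 20.6 and 8.76 CPM on the P4 chips, 11.8 at P7, 29.0 and 12.2 at P14 and 211, 108 and 92.4 at P28 in CM-like cells. The 3 P28 sums were the highest, whereas 1 P14 sum fell among the P4 and P7 sums. The log2 change between the later and the earlier stages was 2.63 ± 0.50 (adjusted p = 0.00347). In fibroblast-like cells Egr1 ranged from 213 to 387 CPM early and from 285 to 890.5 CPM late, and the change of 0.88 ± 0.31 (adjusted p = 0.124) was not called. Endothelial-like and macrophage-like cells gave 0.96 ± 0.37 (adjusted p = 0.144) and 1.36 ± 0.51 (adjusted p = 0.160), with overlapping ranges in both.

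Nr4a1, a nuclear receptor without a required ligand, was at 6.16 and 5.55 CPM at P4 and 5.04 CPM at P7 in CM-like cells, against 12.6 and 61.6 at P14 and 34.1, 19.8 and 29.6 at P28. Early and late sums did not overlap, and the change was 3.15 ± 0.62 (adjusted p = 0.00405). In fibroblast-like cells the early sums spanned 7.83 to 21.7 CPM and the late sums 23.0 to 117 CPM, again without overlap (2.06 ± 0.49, adjusted p = 0.0215). Endothelial-like cells gave 2.15 ± 0.64 (adjusted p = 0.0510) and macrophage-like cells 1.8 ± 0.68 (adjusted p = 0.159), neither of which was called.

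Nr4a3, the related receptor, had its highest CM-like sums on both P14 chips. It stood at 0.999 and 1.39 CPM at P4, 33.0 and 49.4 at P14 and 7.08, 19.2 and 10.4 at P28, and no UMI was found in the 21 CM-like cells of P7, which allows up to 2.52 CPM. The 15 CM-like cells of the first P7 chip, too few for a sum, held 5 UMIs (5.89 CPM), all in 1 cell. The late sums used lay above the early ones without overlap, but 46.4% of the Nr4a3 UMIs of the first P28 chip and 34.5% of those of the fifth came from 1 cell each. At P14 a cluster of 37 CM-like cells with a median of 53988 UMIs held 124 CPM of Nr4a3, against 8.82 and 16.5 CPM in the larger P14 clusters. The fitted change of 7.79 ± 1.10 (adjusted p = 0.000356) rests partly on the empty P7 sum and was 4.81 without that chip, and 4.3 with sums of at least 10 cells. Nr4a3 was not called in endothelial-like (2.89 ± 1.03, adjusted p = 0.109), fibroblast-like (1.77 ± 0.79, adjusted p = 0.229) or macrophage-like cells (4.59 ± 1.43, adjusted p = 0.103), where both P7 sums of macrophage-like cells were at 0.

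Zfp36, which speeds the decay of AU-rich mRNAs, had the largest log2 change, in each class, of the 3 genes called in all 4. In CM-like cells it was at 3.83 and 1.60 CPM at P4, 0.840 at P7, 15.9 and 27.9 at P14 and 103, 51.1 and 16.4 at P28. The P7 value rests on 1 UMI, fewer than the 3 UMIs used as the limit for a count of 0. Each late sum exceeded each early one, with a change of 5.14 ± 0.80 (adjusted p = 0.000767), and of 4.32 without the P7 chip. Fibroblast-like sums were 6.38 to 13.5 CPM early and 53.8 to 248 CPM late, without overlap (3.77 ± 0.51, adjusted p = 0.000164). Macrophage-like sums were 18 to 85.7 CPM early and 95.8 to 765 CPM late, also without overlap (3.28 ± 0.56, adjusted p = 0.00449). Endothelial-like sums spanned 10.5 to 31.2 CPM early, the P14 chips had 60.2 and 20.4 CPM and the P28 chips 146, 159 and 46.6 CPM, so that 1 P14 sum lay inside the early range (2.19 ± 0.50, adjusted p = 0.0124).

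Btg2, the antiproliferative factor with a full response element in its promoter, was at 26.3 and 10.6 CPM at P4, 10.9 at P7, 14.8 and 123 at P14 and 156, 71.2 and 140.0 at P28 in CM-like cells. The 2 P14 mice stood far apart, 1 of them inside the early range, and the change was 3.29 ± 0.65 (adjusted p = 0.00414). Fibroblast-like sums were 39.6 to 86.7 CPM early and 135 to 383 CPM late (2.12 ± 0.40, adjusted p = 0.00361) and macrophage-like sums 155 to 316 CPM early and 369 to 1238 CPM late (2.10 ± 0.43, adjusted p = 0.0161), with no overlap in either class. Endothelial-like sums overlapped, since the first P4 chip had 262 CPM, and the change was 1.61 ± 0.34 (adjusted p = 0.00710).

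Dusp1, the MAP kinase phosphatase, was at 21.0 and 10.04 CPM at P4, 30.2 at P7, 54.3 and 78.6 at P14 and 200.3, 120.1 and 86.6 at P28 in CM-like cells. The late sums were all above the early sums, and the change was 2.75 ± 0.45 (adjusted p = 0.00113). Fibroblast-like sums spanned 77.4 to 167 CPM early and 172 to 886 CPM late (1.98 ± 0.37, adjusted p = 0.00345), and macrophage-like sums 139 to 309 and 714 to 1849 CPM (2.74 ± 0.42, adjusted p = 0.00164). Neither pair of ranges overlapped. Endothelial-like cells changed by 1.32 ± 0.31 (adjusted p = 0.0129), with 142 to 305 CPM early and 225 to 625.4 CPM late.

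Ier2, a nuclear early response protein, was at 14.3 and 11.7 CPM at P4, 31.9 at P7, 22.4 and 12.0 at P14 and 66.2, 56.0 and 91.5 at P28 in CM-like cells. Only the P28 sums stood above all others, and 84.2% of the Ier2 UMIs at P7 came from 1 cell. The change of 1.4 ± 0.43 (adjusted p = 0.0464) was close to the threshold. In macrophage-like cells early sums of 65.2 to 80.1 CPM and late sums of 142 to 524 CPM did not overlap (2.04 ± 0.47, adjusted p = 0.0301), nor did endothelial-like sums of 87.8 to 119 and 138 to 230.4 CPM (1.17 ± 0.30, adjusted p = 0.0233). Fibroblast-like cells gave 1.10 ± 0.33 (adjusted p = 0.0693), not called.

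Ier3, a stress-induced regulator of cell survival, stood at 17.7 and 29.5 CPM at P4, 5.88 at P7, 13.3 and 24.0 at P14 and 37.9, 27.9 and 32.3 at P28 in CM-like cells. Early and late sums overlapped, and the call (1.65 ± 0.51, adjusted p = 0.0474) was lost without the P7 chip, where the change was 0.62 (adjusted p = 0.454). Ier5, which is known to act with heat shock factor, was at 8.66 and 8.01 CPM at P4, 20.2 at P7, 12.0 and 8.84 at P14 and 50.2, 25.1 and 62.4 at P28. Its change of 1.35 ± 0.48 (adjusted p = 0.0797) was the only one of the 9 not called in CM-like cells, and without the P7 chip it was 1.98 (adjusted p = 0.0290). In the other classes neither gene was called, with estimates from 0.39 to 1.37 for Ier3 and from 0.59 to 1.14 for Ier5.

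**Figure D2:**
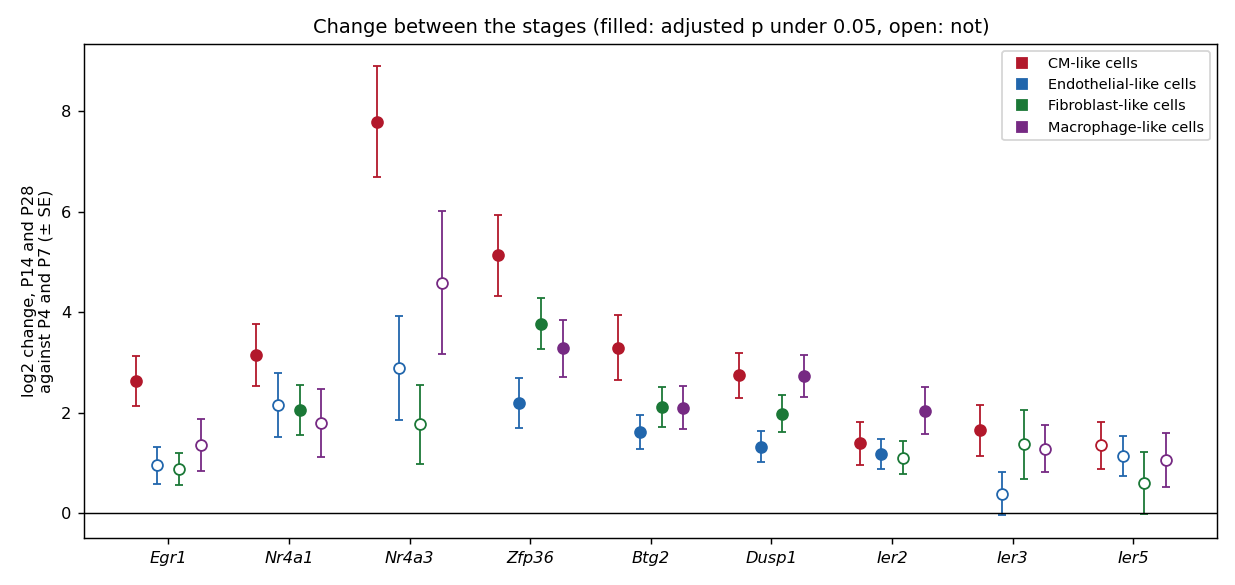
log2 change of 9 genes at P14 and P28 against P4 and P7 on the y axis, with SE bars, coloured by cell class; filled points had an adjusted p under 0.05. All points are above 0, and Zfp36, Btg2 and Dusp1 are filled in all 4 classes.

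Levels that did not overlap between early and late chips were seen for 4 of 10 genes in CM-like cells, for 1 in endothelial-like cells, and for 4 each in the fibroblast-like and macrophage-like classes, where late sums lay wholly above early ones for 4.07, 1.81, 1.13 and 1.31% of all genes. Without adjustment 9, 8, 7 and 8 genes had a p under 0.05 in the 4 classes, and DESeq2 called 9, 7, 6 and 5. Leaving out any 1 chip kept 6 to 8 calls in CM-like cells. In the other classes the count depended on single chips. It was 0 in endothelial-like cells without the second P4 chip and 1 without the second P7 chip, and it was 2 without any 1 of the first P4, first P7 or second P14 chips. It was 2 in fibroblast-like cells without the second P7 chip. In macrophage-like cells it was 1 without the second P7 chip and 2 without any 1 of the other early chips. Dusp1 and Zfp36 in fibroblast-like cells, Dusp1 in macrophage-like cells, and Egr1, Nr4a1, Nr4a3, Zfp36, Btg2 and Dusp1 in CM-like cells were called whichever chip was left out.

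The remaining calls each depended on named chips, with the sign kept throughout. In CM-like cells Ier2 was lost without any 1 of 6 chips (both P4 chips, the first P14 chip and the 3 P28 chips; 1.12 to 2.04 over all omissions), and Ier3 without any 1 of 6 (the first P4, second P7 and second P14 chips and the 3 P28 chips; 0.62 to 1.93). In endothelial-like cells Btg2 was lost without the second P4 chip (1.31 to 2.01), Dusp1 without the second chip of P4, P7 or P14 (1.03 to 1.53), Ier2 without any 1 of the P4, P7 and P14 chips (1.05 to 1.23), and Zfp36 without any 1 of the P4 and P7 chips or the first P14 chip (1.42 to 2.51). In fibroblast-like cells Btg2 was lost without the second P7 chip (1.86 to 2.41) and Nr4a1 without any 1 of the P4 and P7 chips or the fourth P28 chip (1.89 to 2.24). In macrophage-like cells Zfp36 was lost without the second P7 chip (2.74 to 3.59), Btg2 without any 1 of the P4 and P7 chips or the second P14 chip (1.72 to 2.36), and Ier2 without any 1 of the P4 and P7 chips, the first P14 chip or the second or the fourth P28 chip (1.82 to 2.22).

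The P28 CM-like class held cells with markers of other classes. Of its 6 clusters, 1 had 2167 CPM of endothelial markers, 1 had 1979 CPM of macrophage markers and 1 had 5661 CPM of fibroblast markers, and these stood at 895, 1834 and 1250 CPM in the sum of the 10 genes, against 384 to 467 CPM in the other clusters. The cluster with macrophage markers was led by the chemokines Ccl4 and Cxcl2 and by Rgs1 and Plek. Without these 3 clusters the summed level of the P28 chips was 419, 373 and 417 CPM in place of 865, 498 and 562 CPM, and 6 of the 9 genes were still called between late and early stages, a check chosen after the data had been seen. Ier2 (0.86, adjusted p = 0.254) and Ier3 (1.51, adjusted p = 0.0808) were lost. Limiting each cell to 5000 UMIs left 5 calls, without Ier2, Ier3 and Nr4a3. CM-like clusters of the other stages were not screened for markers of other classes. At P14 a cluster of 279 cells was named CM-like although its CM markers exceeded those of the other P14 cells by a mean log2 fold of only 0.248. The other P14 CM-like clusters, of 342 and 37 cells, had 1.467 and 2.02.

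The CM-like class also differed in chamber genes between stages, which were read after the leading genes of its clusters had been seen. The atrial genes Sln and Myl7 stood at 5348 and 6984 CPM and at 9831 and 12795 CPM on the P4 chips. In the P7 sum they were at 0 and 0.84 CPM, at P14 at no more than 0.453 CPM, and at P28 between 12.5 and 93.2 CPM. Myl2, a ventricular gene, was at 9244 and 10327 CPM at P4 and between 8506 and 30208 CPM later. The summed level of the 10 genes was 119.9 and 87.3 CPM at P4 and 117 CPM in the P7 sum, where both atrial genes were near 0. The part of chamber make-up in the late against early result was not tested.

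Several other measures moved with stage. Erythroid markers made up at most 1819 CPM in the 4 classes at P4 and 1194 to 9932 CPM at P7, but 4776 to 228232 CPM at P14 and P28, and leaving those 6 genes out of the sums left 8 calls in CM-like cells. The mitochondrial share of all UMIs in CM-like cells was 20.3% on both P4 chips, 34.4% at P7, 78.8 and 78.4% at P14 and 49.9 to 70.9% at P28. Median UMIs per CM-like cell were 20277 to 39113 at P4 and P7, 8392 to 10732 at P14 and 5253 to 34665 at P28. CM markers in the other 3 classes stood at 10396 to 17583 CPM at P4 and 756 to 3247 CPM on the second, the fourth and the sixth P28 chips. Apart from leaving out erythroid genes and limiting cells to 5000 UMIs, the part of these measures in the result was not tested. Within P14 chips the levels of a class also differed between fractions, without 1 direction: endothelial-like Egr1 was at 160.0 CPM in the CM fraction and 59.4 CPM in the non-CM fraction of the first chip, and at 22.9 and 189.5 CPM on the second.

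Stages that shared a kind of digestion were also compared. At most 1.19% of all genes were called in these comparisons with edgeR, so 0 of 9 calls says little about the 9 genes. P7 against P4, both digested with the kit, gave 0 of 9 calls with edgeR in endothelial-like, fibroblast-like and macrophage-like cells, where 0.0142, 0.0383 and 0.00902% of all genes were called in either direction, and CM-like cells had too few P7 sums for this comparison. At an unadjusted p under 0.05 the counts were 0, 0 and 1, and DESeq2 called 0. P28 against P14, both perfused, gave 0 of 9 in CM-like, endothelial-like, fibroblast-like and macrophage-like cells, beside 0.0314, 1.19, 0 and 0% of all genes called. There the unadjusted counts were 5, 1, 3 and 0, and DESeq2 called 1 gene in CM-like cells, Nr4a3, and none elsewhere. In CM-like cells the 5 unadjusted differences went both ways. Egr1 (1.91 ± 0.53, adjusted p = 0.228), Ier2 (1.26 ± 0.49, adjusted p = 0.411) and Ier5 (1.32 ± 0.54, adjusted p = 0.438) had higher estimates at P28, whereas Nr4a1 (-1.19 ± 0.56, adjusted p = 0.522) and Nr4a3 (-2.43 ± 0.58, adjusted p = 0.169) had lower ones. In fibroblast-like cells all 9 estimates were positive, led by Ier5 (2.04 ± 0.89, adjusted p = 0.344).

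Cell classes differed in a fit with the chip as a term. CM-like cells were lower than the mean of the 3 other classes for 6 of 9 genes, where 8.07% of all genes were lower. A chip adds to this estimate only where it held sums of CM-like and of other cells. At P28 CM-like sums came from the first, the third and the fifth chips, and those of other classes mostly from the remaining chips. The CM-like estimate therefore rests mostly on P4, P7 and P14 chips. Egr1 differed by -2.39 ± 0.32 (adjusted p = 1.15e-06), Dusp1 by -2.18 ± 0.32 (adjusted p = 4.58e-06), Btg2 by -2.08 ± 0.31 (adjusted p = 5.54e-06) and Ier2 by -1.94 ± 0.28 (adjusted p = 5.19e-06). Zfp36 and Ier5 were lower as well, at -1.83 and -1.79. Without the chip term Zfp36 was lost (-1.20, adjusted p = 0.204) and Ier3 gained (-1.38, adjusted p = 0.0282). Nr4a1 (-0.19 ± 0.42, adjusted p = 0.801) and Nr4a3 (0.17 ± 0.81, adjusted p = 0.914) had estimates smaller than their error, and Ier3 was not called at -0.59 ± 0.41 (adjusted p = 0.338).

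Macrophage-like cells were higher than fibroblast-like cells for 5 of 9 genes, beside 10.3% of all genes. These were Ier3 (2.58 ± 0.38, adjusted p = 6.92e-06), Ier5 (2.01 ± 0.31, adjusted p = 1.03e-05), Btg2 (1.90 ± 0.26, adjusted p = 1.53e-06), Zfp36 (1.86 ± 0.31, adjusted p = 2.97e-05) and Dusp1 (1.38 ± 0.26, adjusted p = 0.00021). Without the chip term 4 were called, Zfp36 being lost (1.77, adjusted p = 0.0916). Egr1 went the other way, at -0.40 ± 0.26 (adjusted p = 0.309), without being called. Endothelial-like cells were lower than macrophage-like cells for 7 of 9 genes (7.88% of all genes), with Ier3 at -2.32 ± 0.39 (adjusted p = 4.73e-05) and Nr4a1 at -1.66 ± 0.41 (adjusted p = 0.00421), but only 2 of the 7 were called in a fit without the chip term. Dusp1 in that comparison was lost without any 1 of both P14 chips and the second, the fourth and the sixth P28 chips (-1.01 to -0.62 over all omissions). Between endothelial-like and fibroblast-like cells 1 gene was called, Egr1, lower in endothelial-like cells at -1.37 ± 0.27 (adjusted p = 0.000442), beside 6.23% of all genes. Without any 1 of the second P7, second P14, second P28 and sixth P28 chips 2 genes were called. The 3 pairwise comparisons share sums and are not independent.

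**Figure D3:**
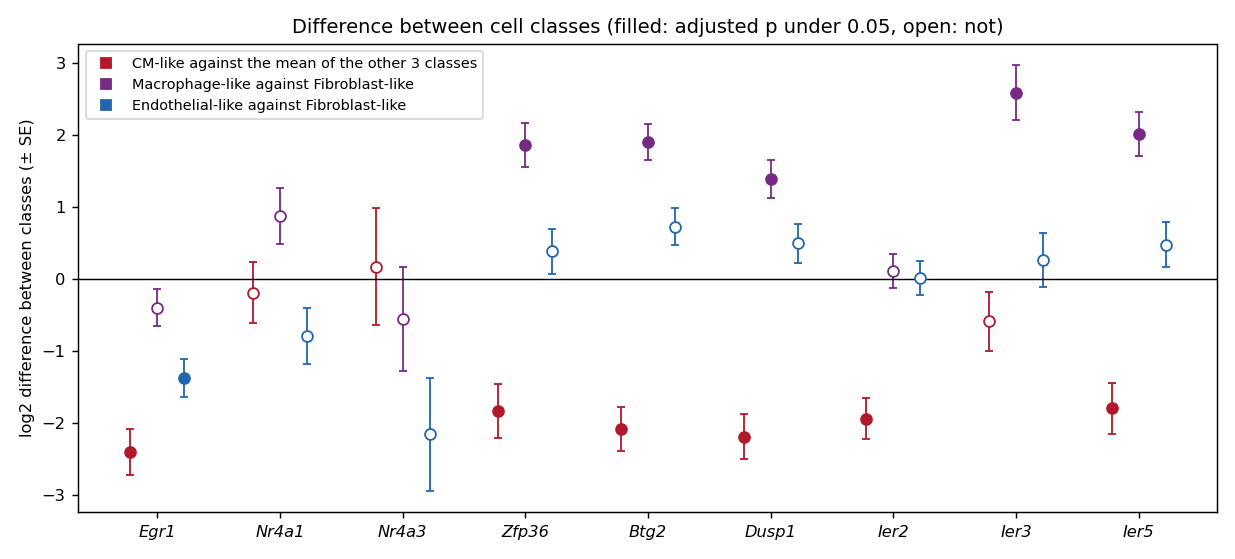
log2 difference between cell classes for 9 genes, from a fit with the chip as a term, with SE bars. Filled points had an adjusted p under 0.05. CM-like cells lie below the mean of the other classes for 6 genes, and macrophage-like cells lie above fibroblast-like cells for 5.

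To see whether the genes occurred in the same cells, each cell with at least 2000 UMIs was thinned to 2000 UMIs. Cells with fewer were left out, so the values below are not of all cells. CM-like cells then held a mean of 0.19 and 0.17 of the 10 genes per cell at P4, 0.29 at P7, 0.32 and 0.30 at P14 and 1.0, 0.75 and 0.73 at P28. The share of CM-like cells with none of the 10 was 73.9 to 84.0% at P4 and P14 and 41.9 to 52.9% at P28. Without the P28 clusters with markers of other classes the P28 shares were 51.8, 55.1 and 58.9%. Macrophage-like cells held 1.58 and 0.90 genes per cell on the P4 chips, 0.86 and 1.0 on the P7 chips, 2.51 and 2.41 on the P14 chips and 3.0, 3.59, 2.96 and 2.15 on the P28 chips, where 4.41 to 33.3% of cells had 5 or more. Fibroblast-like cells held 0.67 and 0.63 at P4 and 2.22, 2.25, 2.45 and 1.46 at P28. Endothelial-like cells held 0.78 and 0.64 at P4 and 1.92, 1.85 and 1.41 at P28. Erythroid-like cells, which formed a class in 2 libraries only, were read as a possible background, although it was not tested that they lack these transcripts. They gave 0.09 genes per cell on the first P14 chip (median 25817 UMIs per cell) and 0.25 in the second shNT animal (median 28527 UMIs per cell). The latter class was led by Npr3, an endocardial gene, beside globins and held 2538 CPM of endothelial markers, and its value is given without a reading. The other wild-type chips had no such class, so no background was measured for P4, P7 or P28. Globins were among the leading genes of the P14 class and share its 2000 UMIs, so its value may understate the background in other classes.

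The variance of the number of genes per cell, divided by the variance expected if the genes were detected independently, was 1.05 and 1.01 in CM-like cells at P4, 1.55 in the 21 cells of P7, 1.15 and 1.34 at P14 and 1.69, 1.36 and 1.38 at P28. At P28 the pairs of genes found in 1 cell numbered 600, 204 and 211, against 356, 136 and 137 expected. Without the 3 clusters with markers of other classes the means per cell were 0.66, 0.60 and 0.58, the pairs numbered 114, 80 and 87, against 93.5, 68.5 and 56.6 expected, and the ratios were 1.14, 1.10 and 1.29. This check was chosen after the data had been seen, and the pairs of named genes that follow include those clusters. Over the wild-type chips Egr1 and Zfp36 met in 62 CM-like cells (30.9 expected), Ier2 and Zfp36 in 34 (14.6 expected), and Ier3 and Zfp36 in 24 (9.17 expected). Pairs with Nr4a3 were few and went both ways. Nr4a3 met Btg2 in 11 cells (5.64 expected), Dusp1 in 12 (8.01 expected), Zfp36 in 6 (3.46 expected), Ier3 in 5 (2.30 expected) and Nr4a1 in 4 (2.38 expected). It met Egr1 in 5 cells with 6.88 expected, Ier2 in 3 with 3.75 expected and Ier5 in 1 with 2.13 expected, and it did not meet Egr3. Macrophage-like cells had ratios of 1.90 and 1.15 at P4, 0.81 and 0.96 on the P7 chips, 1.98 and 1.78 on the P14 chips and 3.38, 1.96, 1.52 and 1.22 on the P28 chips. At 5000 UMIs the P7 ratios were 1.71 and 1.4. Cells are not replicates, and these values describe the chips without a test.

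**Figure D4:**
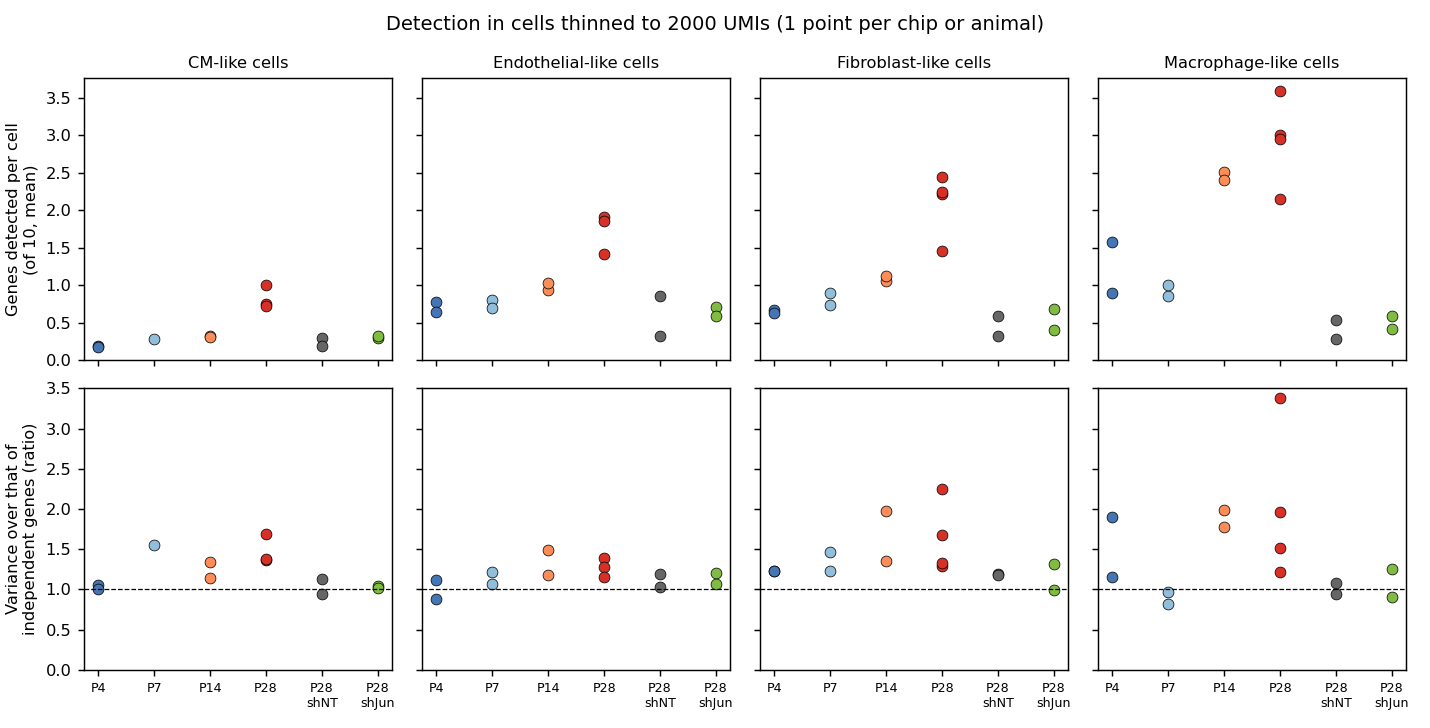
Cells of at least 2000 UMIs, thinned to 2000 UMIs, by class and stage, with 1 point per chip or knockdown animal. The upper row gives the mean number of the 10 genes detected per cell, which is highest on a P28 wild-type chip in each class, and the lower row the variance of that number over the value for independent genes, with a dashed line at 1.

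Across the 37 wild-type sums, centred within each class on the log2(CPM + 1) scale, Dusp1 followed the mean of the 9 other genes most closely (Pearson r = 0.87), ahead of Nr4a1 (0.85), Zfp36 (0.83), Btg2 (0.82), Ier2 (0.76) and Egr1 (0.73). Ier5 (0.57), Nr4a3 (0.56), Ier3 (0.33) and Egr3 (0.26) followed it less. The closest pair was Btg2 and Dusp1 (r = 0.85). Among 14453 genes, those outside the 10 most like their mean were the MHC class I genes H2-K1 (0.82) and H2-D1 (0.80), the NF-κB inhibitor Nfkbia (0.81), the chemokine Cxcl2 (0.80) and the macrophage scavenger receptor Cd163 (0.80). Sums share chips and stages, so these correlations are a description only.

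Other gene lists give the setting of the late against early difference, to be read beside the 5.46, 3.22, 1.69 and 0.965% of all genes called higher in the 4 classes, and the 3.78, 2.96, 2.24 and 0.694% called lower. In CM-like cells 6 of 8 AP-1 genes were higher, with a median log2 change of 2.18, including Fos (2.45), Junb (2.29), Atf3 (3.92) and Fosb (7.06). Of 36 other early response genes 10 were higher (median 1.62), among them Cebpb (8.17), Maff (6.99), Klf4 (3.68) and Mcl1 (1.82). Of 11 inducible heat shock genes 1 was higher, Hspa1b (2.32; median 0.53), and of 13 upstream regulators 2 were, Elk3 (1.78) and Map2k1 (1.87; median 1.06). Endothelial-like cells had 0 of 8 AP-1 genes called (median 0.50), 6 of 34 other early response genes, including Klf4 (1.94) and Klf2 (1.70), 1 of 11 heat shock genes, Hspb1 (1.31), and 0 of 13 regulators. Fibroblast-like cells had 1 of 8 AP-1 genes, Fosl2 (2.81), and 4 of 36 others, Cebpd (3.61), Cebpb (3.47), Gadd45a (2.07) and Klf4 (1.5). Macrophage-like cells had 1 of 7 AP-1 genes, Fosl2 (3.42), and 4 of 34 others, Cebpb (3.47), Zfp36l1 (2.64), Ccn1 (2.56) and Nfkbia (1.68). Neither class had a heat shock gene or regulator called, and no gene of these lists was called lower in any class.

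In the knockdown hearts the targeted gene was read first. Jun in CM-like cells stood at 25.6 and 31.8 CPM with the hairpin against it and at 53.7 and 60.4 CPM with shNT, a log2 change of -1.06 ± 0.23 (edgeR adjusted p = 1.0). It was not lower in endothelial-like (0.25 ± 0.49) or fibroblast-like cells (0.52 ± 0.44), and was at -0.36 ± 0.75 in macrophage-like cells. None of the 10 genes was called between shJun and shNT in any class with edgeR or DESeq2, and 0% of all genes were. At an unadjusted p under 0.05 the count was 1 in CM-like cells, Zfp36, and 0 in the others. Zfp36 stood at 19.5 and 9.22 CPM with shJun and 6.22 and 4.44 CPM with shNT (1.36 ± 0.46, adjusted p = 1.0), and 70.9% of its UMIs in the first shJun animal came from 1 cell. Without the first shNT animal, which leaves 1 shNT sample with its spread taken from the 2 shJun animals, 1 gene was called in CM-like cells, Egr1, which stood at 33.9 and 18.1 CPM with shJun and 29.1 and 5.12 CPM with shNT. The other changes in CM-like cells lay between -0.54 ± 0.29 for Ier3 and 0.96 ± 1.01 for Nr4a3.

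**Figure D5:**
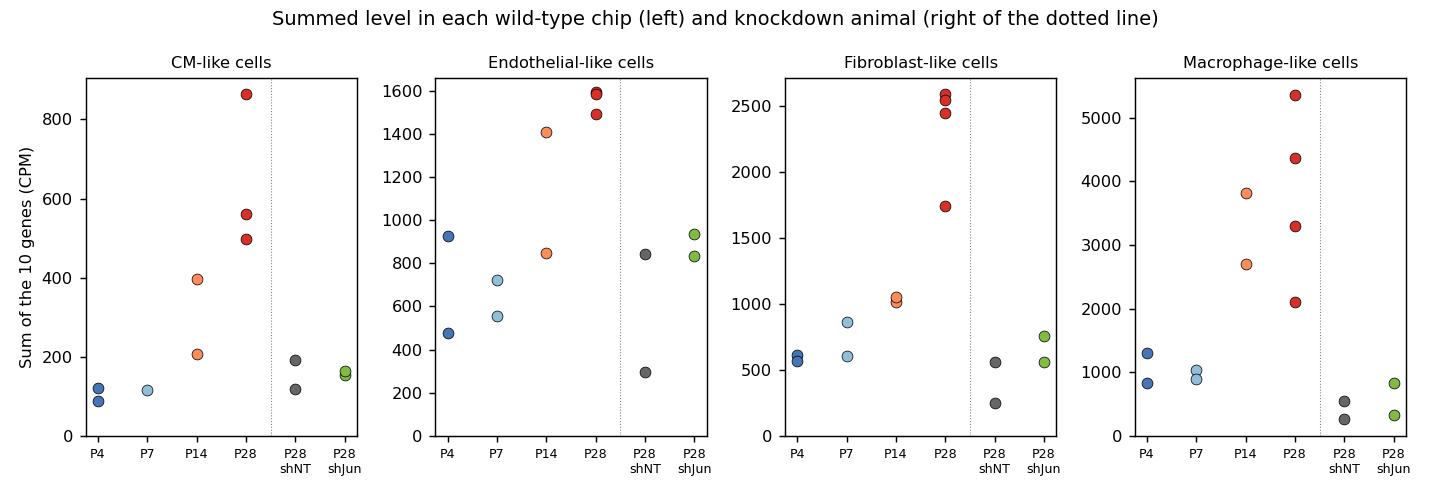
Summed CPM of the 10 genes on the y axis, by cell class, with 1 point per wild-type chip (left of the dotted line) or knockdown animal (right). The shNT and shJun animals lie below all wild-type P28 chips in each class, at 268 to 835 CPM in macrophage-like cells against 2104 to 5363 CPM at P28.

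The knockdown animals, with either hairpin, had lower levels than wild-type P28 hearts, a comparison made after the data had been seen. In CM-like cells the 10 genes summed to 865, 498 and 562 CPM on the wild-type P28 chips, 155 and 163 CPM with shJun and 193 and 117 CPM with shNT. Macrophage-like cells gave 2104 to 5363 CPM in wild-type P28 hearts and 268 to 835 CPM in the knockdown animals. Sums did not overlap in any class. Gene by gene, the wild-type P28 chips lay wholly above the knockdown animals for 7 genes in CM-like cells, for 3 in endothelial-like cells, and for 6 each in the fibroblast-like and macrophage-like classes, beside 9.95, 7.88, 4.66 and 5.55% of all genes. None of the 10 lay wholly below, as 15.5, 5.08, 4.39 and 4.17% of all genes did. The P28 CM-like levels used here include the clusters with markers of other classes. Without those clusters the 10 genes summed to 419, 373 and 417 CPM. Ier5 was then at 19.5 CPM on the third P28 chip, below the mean of 21.1 CPM of the knockdown animals, so its levels overlapped. Dusp1 in macrophage-like cells, for example, was 939, 1464, 890.0 and 779 CPM on the wild-type P28 chips, 42.6 and 18.3 CPM with shNT and 50.6 and 78.2 CPM with shJun. Median UMIs per CM-like cell were 30697 to 58018 in the knockdown animals and 5253 to 34665 on the wild-type P28 chips. CM markers in the other 3 classes were 4054 to 52063 CPM in the knockdown animals and 756 to 3247 CPM on the second, the fourth and the sixth wild-type P28 chips. In the wild-type P28 CM-like clusters these markers were at 36086 to 76498 CPM. Knockdown clusters were not screened for markers of other classes, and the part of these measures in the difference was not tested. The wild-type and injected hearts were on different chips, and may also differ in strain and tamoxifen. Chip, animal, strain, tamoxifen and injection therefore cannot be told apart.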

How the data were processed

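Single-cell RNA was counted on 18 nanowell (ICELL8) chips, each a deposited count matrix with a well report. Per the study's methods and the submitters' processing notes, the authors assigned reads to wells and UMIs with the maker's pipeline, trimmed them with cutadapt, aligned them to mm10 with STAR 2.5.2b and assigned them to Ensembl genes with featureCounts (Subread 1.4.6-p1). The authors deposited raw UMI counts, and the totals of all 23656 wells equalled those in the reports. Groups follow the age and knockdown in GEO's labels, and the hairpin and animal of each knockdown cell were read from the well reports to which the labels point.

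Cells passed with at least 500 genes and a log10 UMI count within 2 SD of their group's mean, control wells (181) and 35 mitochondrial genes were left out, and no doublet caller was run because wells had been imaged for single cells. Cells were clustered per stage or knockdown animal (Python 3.11.15, leidenalg 0.10.2) without the 10 genes and the lists they are set beside, and clusters were named from marker lists; names can differ from the study's. For sums of at least 20 cells, quasi-likelihood tests of edgeR 4.0.16 (R 4.3.3; TMM, filterByExpr) were used, with 1 fit per class over all stages, 1 across classes with the chip as a term and 1 per class for the knockdown. Alternatives were DESeq2 1.42.0, no filter, at least 1000 genes per cell, sums of at least 10 cells, sums per animal, no chip term, a replicate block and leaving out each chip or animal. The models were also run on simulated counts with 1 spread common to all genes and changes only in genes above the median level. Those runs do not cover sparse genes whose UMIs come largely from single cells. CPM are per total UMIs of the class, so a sum of few cells or one led by 1 deep cell is less certain, and the limit given for a count of 0 (3 UMIs) covers counting error only.

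The 10 genes, the lists and the comparisons were chosen with earlier results of these data known. The rule for names was the 10 genes throughout, in each list at most the 4 called genes with the smallest p, and the 5 genes outside the 10 most like their mean. The shJun and shNT animals of the same number shared chips, by the well reports. The correlation of their deviations was 0.31, 0.02, 0.10 and 0.07 in CM-like, endothelial-like, fibroblast-like and macrophage-like cells.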

Additional observations from a re-analysis of the deposited data

Results flagged for a closer look

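Among 20 groups of 4 to 10 sums checked for a single sum far from the others, of which chance alone flags about 1 in 20, 2 stood out, both for Nr4a3 on the first P28 chip. Fibroblast-like cells had 58.9 CPM there, against 16.9 to 22.5 CPM on the other P28 chips, in a sum of 23 cells with 52.2% of the Nr4a3 UMIs from 1 cell. Macrophage-like cells had 32.2 CPM, against 4.57 to 7.83 CPM on the others, in a sum of 37 cells with 91.7% of the 12 UMIs from 1 cell. That chip was dispensed from a CM fraction.

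The shJun against shNT estimates of Ier3 and Zfp36 pointed in opposite directions in some classes with both animals on 1 side, and the differences were not tested. For Ier3 the log2 change in CM-like cells minus that in endothelial-like cells was -2.24, and that in endothelial-like minus that in macrophage-like cells was 2.63. For Zfp36 the change in CM-like cells minus that in macrophage-like cells was 2.45, and that in endothelial-like minus that in macrophage-like cells was 2.46. In the first shJun animal 75.8% of the Ier3 UMIs of endothelial-like cells came from 1 cell, and in the second shNT animal 73.0% of the Zfp36 UMIs of macrophage-like cells did.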

How the results depend on the processing

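Of the 39 called changes of single genes over the 19 comparisons, 708 repeats under other settings all had the same direction, and 71 of them were no longer past the threshold. Of the 131 changes not called, 29 of 2066 repeats passed it. Between endothelial-like and fibroblast-like cells 2 genes were called with DESeq2, with at least 1000 genes per cell, with erythroid genes left out and with no filter, and 1 to 2 when a chip was left out. Between endothelial-like and macrophage-like cells 2 were called with no chip term. For late against early stages, 5 genes were called in CM-like cells at 5000 UMIs per cell at most, 7 in endothelial-like cells with DESeq2, and leaving out a chip gave 0 to 5 in endothelial-like, 2 to 5 in fibroblast-like and 1 to 5 in macrophage-like cells. For P28 against P14 in CM-like cells 1 was called with DESeq2 and 2 with no filter. For shJun against shNT in CM-like cells leaving out an animal gave 0 to 1. At 5000 UMIs per cell the median variance ratio at P4 and P7 was 1.28 in endothelial-like and 1.56 in macrophage-like cells, in place of 1.09 and 1.06. Without 3 P28 clusters that at P14 and P28 in CM-like cells was 1.15 in place of 1.36. The replicate block by pairs of animals that shared chips gave 0 calls in all 4 classes and changed no other call. No paired analysis was possible for the stages because their labels give no replicate numbers, and those used here only name chips in accession order. The causes were not tested. The co-detection counts without 3 P28 CM-like clusters, the limit at 5000 UMIs per cell, the sums without erythroid genes and those without the same clusters were added after seeing the data.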
